A study of Mus musculus with 34 samples.

Results

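The genes that make and break down sphingomyelin were followed in mouse colon tumour organoids: the sphingomyelin synthases Sgms1 and Sgms2, the related synthase Samd8, the sphingomyelinases Smpd1, Smpd2, Smpd3 and Smpd4, the sphingomyelinase-like gene Smpdl3b, and the ceramide kinase Cerk. They were chosen by gene name, and all 9 were found among the 54354 genes of the table. RNA was sequenced from 34 libraries in 5 groups, all of epithelial cells of colon tumour organoids with the genotype label AKP. In the hairpin experiment, 10 libraries carried a control hairpin (shControl) and 3 a hairpin against Yap1 (shYAP). In the CRISPR experiment, 3 libraries came from a scrambled control (Scrambled), 9 from Degs1-KO clone1 and 9 from Degs1-KO clone2, made with a ribonucleoprotein protocol. Each knockout line is 1 clone, so an effect of the knockout and a property of the clone cannot be told apart within a line. The sources used here give neither strain nor age, and do not say whether replicates were separate cultures, so p-values measure only how these libraries scatter, and that scatter may be technical.

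Sphingomyelin is made when a synthase moves a phosphocholine head group from phosphatidylcholine onto ceramide, which releases diacylglycerol. Sphingomyelinases break sphingomyelin down and return ceramide, at acid pH in lysosomes or at neutral pH at other membranes. Ceramide kinase sends ceramide to ceramide 1-phosphate instead. Degs1, the gene targeted in the clones, encodes the dihydroceramide desaturase that makes ceramide in the de novo pathway, so it acts just before the enzymes described here.

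Sequences upstream of RefSeq transcript starts are shown for Sgms1 and Cerk, the members whose levels differed most firmly between the clones. RefSeq's table (GRCm38.p6) held 17 starts for 8 of the 9 members, and each printed window is the 250 bases before a start, 5′ to 3′ on the gene's minus strand. Capitals mark matches on either strand to GGAATG (the core bound by TEAD factors, the DNA-binding partners of YAP), CACGTG (an E-box) or GGGCGG (a GC box). The window of Cerk ends at the annotated start of the gene. Sgms1 has 4 windows in the table, and the 2 printed were chosen after the motif counts were seen. Both lie inside the annotated gene and outside its exons. Of the others, chr19:32211014-32211263 held 1 GGAATG, and chr19:32388050-32388299, which overlaps an exon of another Sgms1 transcript, held 2 GC boxes.
Cerk chr15:86186142-86186391: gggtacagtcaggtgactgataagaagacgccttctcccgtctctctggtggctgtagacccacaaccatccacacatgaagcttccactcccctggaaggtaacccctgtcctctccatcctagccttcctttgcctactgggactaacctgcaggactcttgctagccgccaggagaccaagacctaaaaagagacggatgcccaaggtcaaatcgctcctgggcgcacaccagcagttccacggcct
Sgms1 chr19:32349317-32349566: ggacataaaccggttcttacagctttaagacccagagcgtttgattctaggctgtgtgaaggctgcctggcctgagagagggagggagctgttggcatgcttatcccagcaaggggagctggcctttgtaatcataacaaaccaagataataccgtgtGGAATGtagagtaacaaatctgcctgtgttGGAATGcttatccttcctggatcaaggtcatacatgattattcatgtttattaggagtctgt
Sgms1 chr19:32388513-32388762: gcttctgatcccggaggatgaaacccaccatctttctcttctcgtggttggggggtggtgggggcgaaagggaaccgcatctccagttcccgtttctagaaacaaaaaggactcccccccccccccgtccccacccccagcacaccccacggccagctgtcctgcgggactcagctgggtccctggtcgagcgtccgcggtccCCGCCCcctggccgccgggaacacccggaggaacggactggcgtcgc
The Cerk window held none of the 3 motifs, the first printed Sgms1 window held 2 copies of GGAATG, and the second held 1 GC box. Of 32851 windows of 250 bases in the table, 12.6% held GGAATG, 6.02% CACGTG and 32.7% GGGCGG, against 2, 2 and 8 of the 17 windows of the members. A match describes these letters only, and gene counts do not tell which Sgms1 start was used.

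Libraries held 883253 to 6597099 counts. The shallowest were clone1 replicate 2 and shControl replicate 3 (1747533), and all others had at least 2470845. Degs1 was lower in both clones than in Scrambled, by log2 fold changes of -1.57 ± 0.43 (SE, edgeR adjusted p = 0.0117) in clone1 and -2.15 ± 0.43 (adjusted p = 0.000156) in clone2. Yap1 mRNA was not lower in the libraries labelled shYAP (log2 fold change 0.20 ± 0.23, adjusted p = 0.619), so no knockdown was seen in mRNA. These data hold no protein, so a knockdown at that level was not tested. Degs1 was higher in shYAP than in shControl (1.47 ± 0.29, adjusted p = 0.00205). All 8 epithelial markers had counts in every group. Col1a2, Col3a1, Cd3e, Cdh5 and Kdr, which define fibroblasts, T cells and endothelium, had 0 counts in all 34 libraries. Other markers of these cells had a few: of 5 fibroblast markers Dcn had counts in 8 libraries (at most 5), Col1a1 in 4 (at most 4) and Pdgfra in 1. Of 5 leukocyte markers Ptprc had counts in 7 libraries (at most 6), Csf1r in 4, Adgre1 in 2 and Cd79a in 1. The endothelial marker Pecam1 had counts in 32 libraries (at most 13).

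Sgms1 and Smpd3 were lower and Cerk was higher in clone2 than in Scrambled, while in clone1 no member passed the test. Differences were called at an adjusted p under 0.05 from edgeR's quasi-likelihood test, adjusted over all genes tested, and all 9 members passed the filter on low counts in every fit. In clone2 against Scrambled 3 members were called, 1 higher and 2 lower, where 33.1% of all genes were called (16.5% higher, 16.6% lower). In clone1 against Scrambled 0 members were called, against 12.7% of all genes (5.96% higher, 6.71% lower), and 1 member had an unadjusted p under 0.05, and DESeq2 called 0. Both clones together against Scrambled gave 2 members, both lower, against 17.6% of all genes (8.39% higher, 9.21% lower). Clone2 against clone1 gave 5 members, 1 higher and 4 lower, against 49.1% of all genes (23.6% higher, 25.5% lower). The shYAP libraries against shControl gave 0 members, against 11.4% of all genes (5.47% higher, 5.9% lower), with 4 at an unadjusted p under 0.05 and 1 called by DESeq2. These shares of members are to be read against those of all genes, since many genes differed between the clones.

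**Figure D1:**
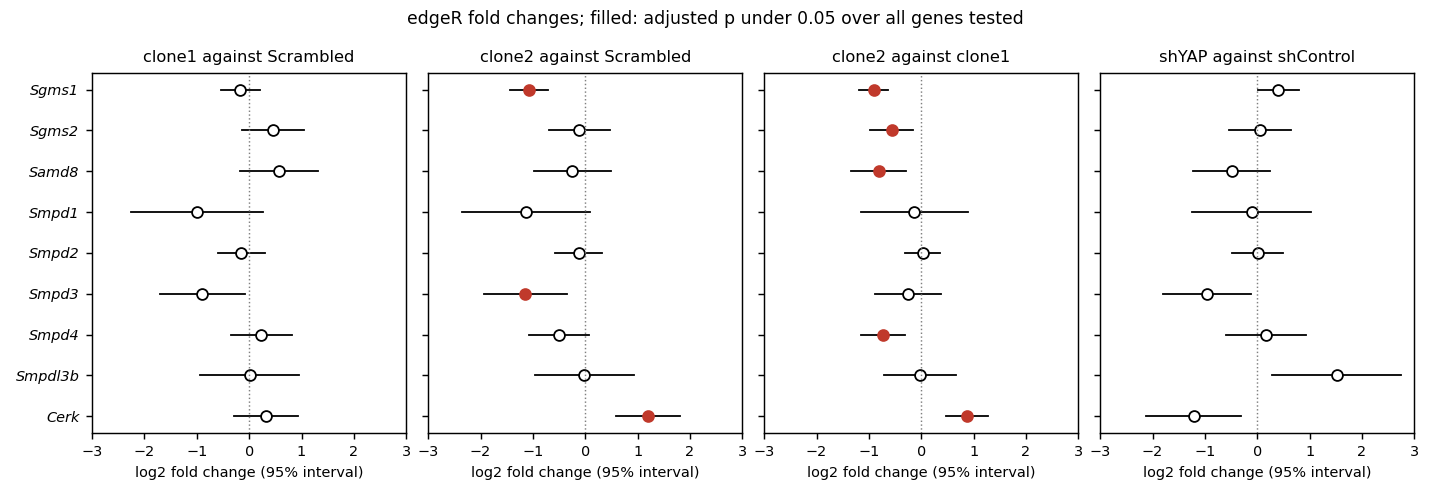
Log2 fold change (x axis) of each of the 9 genes (y axis) in 4 comparisons, with bars for 95% intervals and filled points for an edgeR adjusted p under 0.05. Filled points are absent in clone1 against Scrambled and in shYAP against shControl, and number 3 in clone2 against Scrambled and 5 in clone2 against clone1.

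Sgms1 (ENSMUSG00000040451, chr19:32122727-32389714, mm10, GENCODE M21) encodes the sphingomyelin synthase of the Golgi. Its normalised level in CPM (counts scaled to a common library size) was 28.6, 27.8 and 30.6 in the 3 Scrambled libraries. In clone1 it ran from 21.24 through a median of 25.8 to 32.1 CPM, and in clone2 from 9.42 through 14.9 to 19.7 CPM. All 9 clone2 libraries lay below every Scrambled, clone1 and shYAP library, and 8 of 9 lay below every shControl library. The log2 fold change was -1.08 ± 0.18 (SE, adjusted p = 1.15e-05) in clone2 against Scrambled and -0.91 ± 0.14 (adjusted p = 9.57e-07) in clone2 against clone1. In clone1 against Scrambled it was -0.17 ± 0.18 (adjusted p = 0.622). Over both clones it was -0.62 ± 0.17 (adjusted p = 0.00652). This did not pass without Scrambled replicate 3 (-0.59, adjusted p = 0.0506) or with shControl in place of Scrambled (-0.29, adjusted p = 0.0639). Nor did it pass with limma blocked on the run (-0.64, adjusted p = 0.0971), where runs were inferred from library numbers and not named by the labels. Within clone2, replicates 1 to 6 averaged 14.45 ± 3.86 CPM (SD) and replicates 7 to 9 averaged 13.03 ± 3.02 CPM. The mean over clones averages a low clone2 and a clone1 that overlapped Scrambled. In bulk RNA, fewer cells that express a gene and less RNA per cell cannot be told apart.

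Sgms2 (ENSMUSG00000050931, chr3:131318985-131491411) encodes the synthase of the plasma membrane. Its CPM was 12.7, 5.56 and 6.29 in Scrambled, with medians of 10.5 in clone1 and 8.33 in clone2, and the groups overlapped. It was lower in clone2 than in clone1 (-0.57 ± 0.21, adjusted p = 0.0215) but not against Scrambled (-0.12 ± 0.29, interval -0.70 to 0.47). Samd8 (ENSMUSG00000021770, chr14:21750531-21798726) encodes a ceramide phosphoethanolamine synthase of the endoplasmic reticulum. Its CPM was 5.08, 3.40 and 4.87 in Scrambled, 1.68 to 9.95 in clone1 and 2.79 to 5.50 in clone2. Samd8 was lower in clone2 than in clone1 (-0.81 ± 0.26, adjusted p = 0.00907), while its change against Scrambled had an interval of -0.98 to 0.49. The 3 synthase genes were all lower in clone2 than in clone1, a comparison in which 25.5% of all genes were called lower. Sgms1 alone also passed against Scrambled. With limma blocked on the run, neither Sgms2 (-0.52, adjusted p = 0.13) nor Samd8 (-0.66, adjusted p = 0.157) passed between clones. With clone replicates 1 to 6 alone the Samd8 difference between clones did not pass (-0.64, adjusted p = 0.135), and with replicates 7 to 9 alone that of Sgms2 did not (-0.36, adjusted p = 0.398).

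Smpd3 (ENSMUSG00000031906, chr8:106252548-106337988) encodes a neutral sphingomyelinase of the plasma membrane and Golgi, known for its part in exosome release. Its CPM was 13.6, 8.96 and 15.4 in Scrambled, 1.68 to 17.7 in clone1 (median 7.29) and 3.39 to 8.24 in clone2 (median 5.30). All 9 clone2 libraries lay below every Scrambled library, and so did 7 of 9 clone1 libraries. The 1 clone1 library above every Scrambled library was replicate 2, the shallowest, with 16 Smpd3 counts. The log2 fold change against Scrambled was -1.14 ± 0.39 (adjusted p = 0.0234) in clone2, -0.90 ± 0.39 (adjusted p = 0.144) in clone1 and -1.02 ± 0.35 (adjusted p = 0.0452) over both. The call over both clones was kept without that shallow library. Clone2 and clone1 differed by -0.25 ± 0.31 (adjusted p = 0.531), so no difference between the clones was shown. Smpd3 is the least firm of the calls: over both clones it was lost without any 1 of the Scrambled libraries, with adjusted p of 0.164, 0.058 and 0.225 without replicates 1, 2 and 3. In clone2 it was lost without Scrambled replicate 1 (-1.09, adjusted p = 0.0805) or replicate 3 (-0.98, adjusted p = 0.122). Clone2 replicates 1 to 6 averaged 4.65 ± 1.16 CPM and replicates 7 to 9 averaged 7.89 ± 0.30 CPM, and with clone replicates 7 to 9 alone the change in clone2 was -0.66 (adjusted p = 0.058). With shControl in place of Scrambled it was -0.52 (adjusted p = 0.162) in clone2 and -0.40 (adjusted p = 0.262) over both clones.

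Among the other sphingomyelinases, Smpd4 (ENSMUSG00000005899, chr16:17619354-17644828), a neutral enzyme of the endoplasmic reticulum and nuclear envelope, was lower in clone2 than in clone1 (-0.73 ± 0.21, adjusted p = 0.00382). Its CPM lay between 3.91 and 11.1 in clone1 and between 3.01 and 6.71 in clone2, and 7 of 9 clone2 libraries lay below all 3 Scrambled libraries (6.93, 5.71 and 8.93). Against Scrambled its interval in clone2 was -1.08 to 0.07, and with clone replicates 1 to 6 alone the difference between clones did not pass (-0.50, adjusted p = 0.152). Smpd1 (ENSMUSG00000037049, chr7:105554360-105558389) encodes the lysosomal acid sphingomyelinase, which is deficient in Niemann-Pick disease types A and B. It had only 1 to 20 counts per library, and its interval in clone2 against Scrambled, -2.36 to 0.10, shows how little that depth can resolve. Smpd2 (ENSMUSG00000019822, chr10:41485642-41490369), another neutral enzyme, was the steadiest member, with group means from 11.4 ± 2.51 CPM (SD, n = 9, clone1) to 13.1 ± 3.62 CPM (n = 3, Scrambled). Its interval in clone2 against Scrambled was -0.57 to 0.32. Smpdl3b (ENSMUSG00000028885, chr4:132732966-132757252), a lipid-anchored relative of acid sphingomyelinase, had group means of 2.18 CPM in Scrambled, 2.13 in clone1 and 2.20 in clone2.

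Cerk (ENSMUSG00000035891, chr15:86139128-86186141), whose upstream sequence is shown above, rose in clone2. Its CPM was 8.78, 5.56 and 4.87 in Scrambled, 4.42 to 12.8 in clone1 (median 7.46) and 7.91 to 24.2 in clone2 (median 13.1). In clone2, 8 of 9 libraries lay above every Scrambled library and 5 of 9 above every clone1 library. The log2 fold change was 1.20 ± 0.30 (adjusted p = 0.0018) against Scrambled and 0.87 ± 0.20 (adjusted p = 0.000457) against clone1. In clone1 against Scrambled it was 0.32 ± 0.30 (adjusted p = 0.55). Within clone2, replicates 1 to 6 averaged 11.7 ± 2.22 CPM (SD) and replicates 7 to 9 averaged 20.75 ± 4.61 CPM. With clone replicates 1 to 6 alone the difference between clones was 0.52 (adjusted p = 0.0821) and did not pass, and with replicates 7 to 9 alone it was 1.45 (adjusted p = 1.88e-05). Over both clones against Scrambled it was 0.76 ± 0.28 (adjusted p = 0.0571), and it passed in 5 of 14 alternatives.

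Markers of cell types moved in clone1 as well as in clone2. The summed level of 9 absorptive colonocyte markers was 1224 to 1384 CPM in Scrambled, 1619 to 2733 in clone1 and 517.7 to 1005 in clone2. All 7 of those tested were lower in clone2 than in clone1, where 25.5% of all genes were lower. Against Scrambled, 6 were lower and 1 higher in clone2 (16.6% and 16.5% of all genes). In clone1, 1 was lower and 5 higher (6.71% and 5.96%). Summed over 6 markers of cycling cells, the level was 678.9 to 680.0 CPM in Scrambled, 430.0 to 651.0 in clone1 and 238.4 to 390.5 in clone2. Against Scrambled all 6 were lower in clone2 and 3 in clone1. In shYAP 3 were lower than in shControl (5.9% of all genes). Their part in the differences of Sgms1, Smpd3 and Cerk was not tested.

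**Figure D2:**
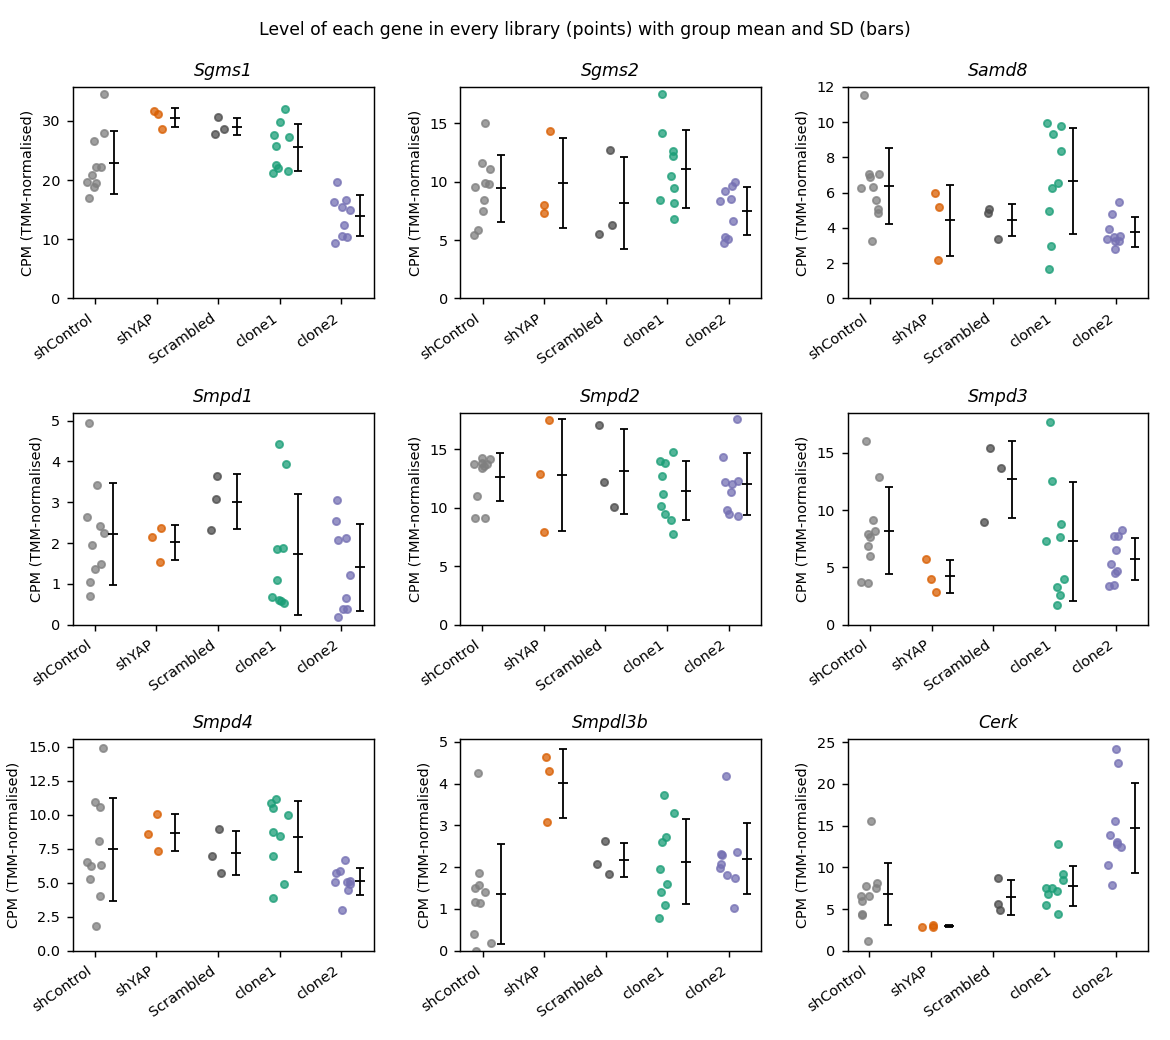
Level of each of the 9 genes in every library (points, CPM on the y axis) by group (x axis), with bars for the group mean and SD. The 9 clone2 points of Sgms1 sit between 9.42 and 19.7 CPM, below the 3 Scrambled points, while the clone2 points of Cerk reach 24.2 CPM.

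In the hairpin experiment the largest differences were in Smpdl3b and Cerk, and neither passed the test. Cerk was at 2.87, 3.08 and 2.87 CPM in the shYAP libraries, against a median of 6.53 and a range of 1.21 to 15.6 in shControl, a log2 fold change of -1.22 ± 0.44 (adjusted p = 0.0747). The 3 shYAP values lay close together, and 9 of 10 shControl libraries lay above all of them. The ranges overlapped through shControl replicate 3 alone, a shallow library with 2 Cerk counts. Without that library Cerk passed (-1.31, adjusted p = 0.027). Smpdl3b was at 4.31, 3.08 and 4.63 CPM in shYAP and at 0.00 to 4.26 in shControl, a log2 fold change of 1.51 ± 0.60 (adjusted p = 0.101). Its counts were low: shControl replicate 3 had 0, which allows up to 1.82 CPM (3 counts, counting error only), and no library had more than 22. Sgms1 (0.40 ± 0.19, adjusted p = 0.181) and Smpd3 (-0.96 ± 0.41, adjusted p = 0.126) did not pass. Fitted with all 34 libraries, Smpdl3b (1.52, adjusted p = 0.0271) and Cerk (-1.22, adjusted p = 0.0229) both passed. The fold change of Smpdl3b depended on the shControl libraries, which averaged 0.43 ± 0.50 CPM in replicates 1 to 4 and 1.97 ± 1.15 CPM in replicates 5 to 10. It was 2.85 (adjusted p = 0.00537) against shControl replicates 1 to 4 alone and 3.85 (adjusted p = 0.02) with a replicate block. The block joins libraries by number, which the labels do not say are pairs. Over 13 alternatives the Smpdl3b fold change ran from 1.03 to 3.85, and it passed in only 3.

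The knockout effect and the shYAP effect differed in 2 members, 1 higher and 1 lower, against 18.8% of all genes (9.84% higher, 9% lower). For Sgms1 the knockout effect minus the shYAP effect was -1.02 ± 0.25 (adjusted p = 0.00307), and for Cerk it was 1.98 ± 0.50 (adjusted p = 0.00401). The knockout effect here is the mean of both clones, and the clones differed in both genes. Against Scrambled, Sgms1 was -0.17 in clone1 and -1.08 in clone2, and Cerk was 0.32 and 1.20. For Cerk neither part passed alone (adjusted p = 0.0571 over both clones and 0.0747 in shYAP). Knockout and hairpin were separate experiments with separate controls, so the perturbation and the experiment cannot be told apart. The controls themselves gave 0 called members, against 2.95% of all genes (1.76% higher, 1.19% lower), with 0 at an unadjusted p under 0.05 and 0 by DESeq2.

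Ordered by group mean, Sgms1 ran from shYAP (30.6 ± 1.63 CPM) through Scrambled, clone1 and shControl (22.9 ± 5.29) to clone2 (13.98 ± 3.48), and of these neighbours only shControl and clone2 differed (adjusted p = 3.22e-05). Cerk ran from clone2 (14.7 ± 5.36 CPM) through clone1, shControl and Scrambled to shYAP (2.94 ± 0.12), and of these neighbours only clone2 and clone1 differed (adjusted p = 0.00129). For the other 7 members no neighbouring groups passed the test. Sgms2, Samd8, Smpd3, Smpd4 and Smpdl3b each passed between some groups further apart in the order, and Smpd1 and Smpd2 did not.

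Compared per kilobase, the order of the members depended on the length used. With the union of exons, Smpd2 led in Scrambled at 2.93 ± 0.81 CPM per kb, followed by Sgms1 at 2.75 ± 0.14 and Smpd3 at 2.42 ± 0.64. With the longest transcript, Sgms1 led at 7.19 ± 0.36, since its 15 annotated transcripts cover 10546 bases in union and 4036 in the longest. In clone2 Cerk led by union at 3.06 ± 1.11 CPM per kb, ahead of Smpd2 at 2.70 ± 0.59, with Sgms1 at 1.32 ± 0.33.

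**Figure D3:**
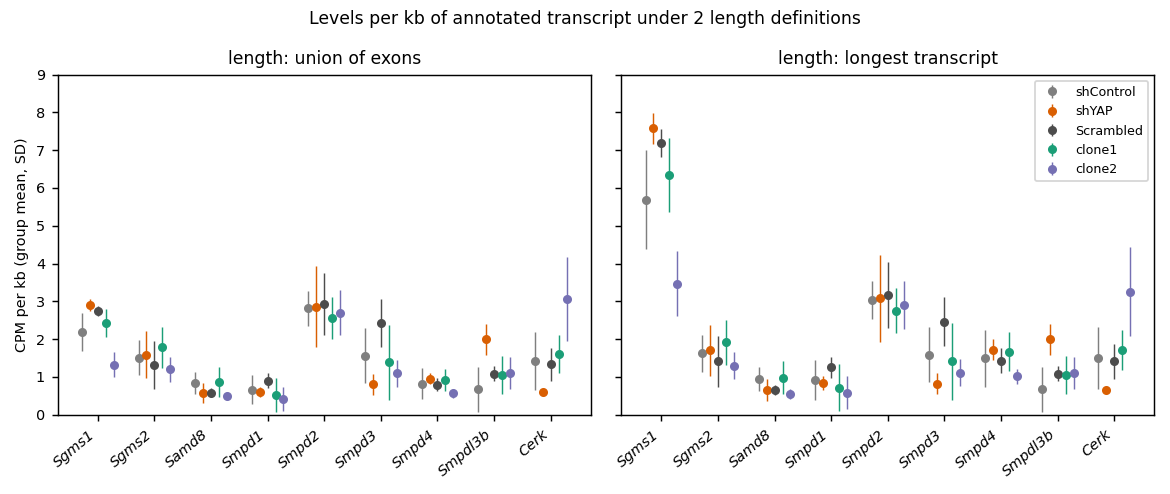
Level per kilobase (y axis, group mean and SD in CPM per kb) of the 9 genes (x axis) in the 5 groups, with the union of exons on the left and the longest transcript on the right. Sgms1 in Scrambled moves from 2.75 to 7.19 CPM per kb between the panels, while Smpd2 moves from 2.93 to 3.16.

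Of 52 other genes of sphingolipid metabolism, 40 were tested in the CRISPR experiment. In clone2 against Scrambled 11 were higher and 4 lower, 37.5% of those tested against 33.1% of all genes, with a median log2 fold change of 0.12 against -0.03 over all genes. Those that changed most were Degs1 (-2.15), Gba2 (1.68), a glucosylceramidase outside lysosomes, Enpp2 (1.64), which makes lysophosphatidic acid, and Gltp (1.40), a glycolipid transfer protein. In clone1 against Scrambled 8 were higher and 6 lower, 35% against 12.7% of all genes, with a median of 0.24 against 0.025. Degs1 (-1.57, adjusted p = 0.0117), Enpp2 (1.44, adjusted p = 0.00695) and Gltp (0.70, adjusted p = 0.0254) passed there too, and Gba2 did not (1.17, adjusted p = 0.247). In shYAP against shControl 3 of 42 were higher and 2 lower, 11.9% against 11.4% of all genes, with a median of -0.04 against -0.05. Among them were Ugcg, the glucosylceramide synthase, at -1.84 ± 0.26 (adjusted p = 9.41e-05), and the ceramide 1-phosphate transfer gene Cptp at 0.83 ± 0.22 (adjusted p = 0.0185). Cptp went the other way against Scrambled in clone2 (-0.67 ± 0.17, adjusted p = 0.00181) and in clone1 (-0.91 ± 0.17, adjusted p = 0.000205). It was also higher in Scrambled than in shControl (0.87 ± 0.19, adjusted p = 0.0046).

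The genes whose log2 levels most resembled those of Cerk across the 34 libraries, among 9762 genes compared, were Zfp931 (Pearson r = 0.831), Cbln3 (0.822) and Fgfrl1 (0.81). For Smpdl3b they were Mad2l1bp (0.783), Slc35a4 (0.743) and Sco2 (0.726). These correlations describe libraries that share groups, and Smpdl3b has few counts. Once group means were removed, the strongest correlations among members over 34 libraries were Smpd2 with Cerk (0.559) and Samd8 with Smpd3 (0.504), and Sgms2 with Smpd3 was the most negative (-0.423). These are the extremes of all pairs, and shifts within a group remain in them. In clone2, Smpd2 averaged 10.69 CPM in replicates 1 to 6 and 14.77 in replicates 7 to 9, and Cerk 11.72 and 20.75. Samd8 and Smpd3 were both highest of clone1 in its shallow replicate 2. The part of such libraries was not tested.

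**Figure D4:**
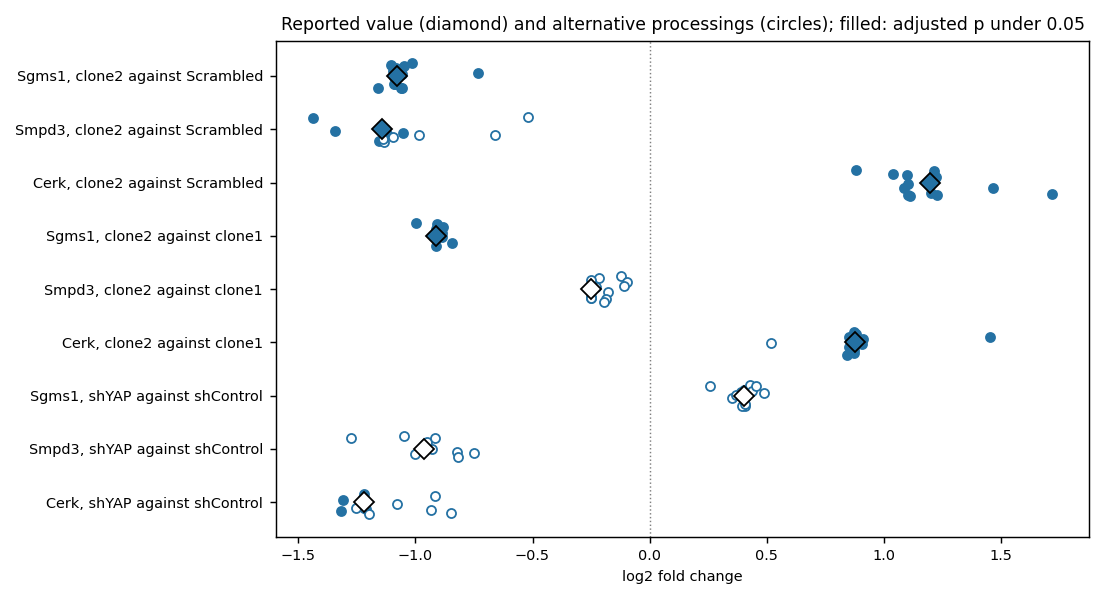
Log2 fold change (x axis) of Sgms1, Smpd3 and Cerk in 3 comparisons (y axis), as reported (diamonds) and under alternative processings (circles), filled where the adjusted p was under 0.05. Sgms1 and Cerk in clone2 against Scrambled are filled in 14 of 14 alternatives, and Smpd3 in 8 of 14.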

How the data were processed

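RNA was measured in poly(A)-selected, directional libraries from organoids, per the labels' protocols. The authors deposited expected counts per gene, and the submitters' processing notes name Salmon 1.3.0 and mm10. These values were already whole and needed no rounding. The annotation release and the summing of transcripts to genes are not given in the sources used here. Of 54354 genes, 29742 had 0 counts everywhere, and 1243 unnamed entries took up no more than 0.0475% of any library.

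Counts were tested with edgeR 4.0.16 (R 4.3.3): TMM factors, filterByExpr (minimum count 10, minimum total 15), robust quasi-likelihood, two-sided, Benjamini-Hochberg over all genes tested, threshold 0.05. The CRISPR experiment (21 libraries), the hairpin experiment (13) and, for contrasts across them, all 34 libraries were fitted separately. CPM used TMM factors over all 34 libraries. Lengths came from GENCODE M21, which held 51485 of the IDs. DESeq2 1.42.0, limma 3.58.1 (prior count 2), other size factors, no filter, a replicate block and subsets of libraries were the alternatives. Runs used as a random block were those that earlier results of these data had defined from neighbouring library numbers. The labels do not say that numbers pair libraries, so the reported fits used no block. Between groups, same-numbered libraries had a mean r from -0.033 to 0.062, over 3 or 9 pairs. Single pairs ran from -0.136 to 0.22. Scripts were tested on simulated data.

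Members and lists were chosen with earlier results of these data known. Named were all members, Degs1 and Yap1, up to 4 other pathway genes per comparison with the largest called change and a mean log2 CPM of at least 1, and, for the 2 members with the widest range of group means, the 3 genes of most similar pattern.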

Additional observations from a re-analysis of the deposited data

Results flagged for a closer look

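In 27 groups of 9 or 10 libraries, 4 held a library far from the others of its group by Dixon's test, where chance flags about 1 group in 20. They were Samd8 in shControl replicate 3 (11.52 CPM, a shallow library), Smpdl3b in shControl replicate 7 (4.258 CPM) and clone2 replicate 7 (4.184 CPM), and Cerk in shControl replicate 6 (15.57 CPM). The rate of 1 in 20 holds for normally spread values. These were CPM without a log, some from few counts, so 4 of 27 cannot be set against that rate.

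The clones differed from each other in 5 of 9 members by the edgeR test, where 49.1% of all genes differed. Clone2 minus clone1 was -0.91 for Sgms1, -0.57 for Sgms2, -0.81 for Samd8, -0.73 for Smpd4 and 0.87 for Cerk on the log2 scale. The knockout effect, a mean over both clones, and the shYAP effect differed in 2 of 9 members, against 18.8% of all genes. The differences were -1.02 for Sgms1 and 1.98 for Cerk.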

How the results depend on the processing

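Of 900 values of single members under alternatives, 778 kept their direction and their side of the threshold. Sgms1 and Cerk in clone2 against Scrambled passed in 14 of 14 alternatives, and Smpd3 in 8 of 14. Sgms1 in clone2 against clone1 passed in 13 of 13 and Cerk in 12 of 13. Over both clones 2 members were called as reported, against 17.6% of all genes. They became 1 (Sgms1) with the replicate block (13.9% of all genes) and 1 (Sgms1) with limma without a block (15.3%). They became 0 with limma blocked on the run (7.89%), and 0 to 2 leaving out 1 Scrambled library (10.2% to 11.6%). With shControl in place of Scrambled (22.9% of all genes) both were lost and the 1 called was Cerk, which was higher. Without Scrambled replicate 1 the 2 called were Sgms1 and Cerk. The replicate block gave Smpd3 there -0.99 (adjusted p = 0.0676). The 0 called in clone1 (12.7% of all genes) became 1 (Smpd3, lower) with clone replicates 1 to 6 alone (18.4%). The 5 called between clones (49.1% of all genes) became 3 (Sgms1, Smpd4 and Cerk) when limma blocked on the run (33.0%). With replicates 1 to 6 alone (38.8%) they became 2 (Sgms1 and Sgms2). The 0 called in shYAP (11.4% of all genes) became 2 (Smpdl3b and Cerk) with 1 fit of all libraries (17.3%). They became 1 (Cerk) with DESeq2, with the shallowest library left out (12.6%) or with shControl replicates 5 to 10 alone (13.9%). They became 1 (Smpdl3b) with the replicate block (15.6%) or with shControl replicates 1 to 4 alone (25.2%). Under each of these settings, DESeq2 included, the share of all genes called in shYAP rose as well. The 0 called between controls (2.95% of all genes) became 1 (Smpdl3b) with shControl replicates 1 to 4 alone (12.4%). For the knockout effect minus the shYAP effect the 2 called (18.8%) became 0 when limma blocked on the run (6.24%). The cause of these changes was not tested. Depth limits Smpd1 and Smpdl3b most, with medians of 8 and 9 counts per library.

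The sign turned in 78 values, of members that passed neither as reported nor under the alternative, at log2 fold changes of at most 0.66 in size. With median-of-ratios size factors, both clones against Scrambled had Smpdl3b at 0.0066, and clone2 against Scrambled had Smpdl3b at 0.0073, and clone2 against clone1 had Smpdl3b at 0.0012. With DESeq2, both clones against Scrambled had Smpdl3b at 0.0065, and clone2 against Scrambled had Smpdl3b at 0.004. With 1 fit of all libraries, both clones against Scrambled had Smpdl3b at 0.006, and clone2 against Scrambled had Smpdl3b at 0.003. With the replicate block, clone1 against Scrambled had Smpdl3b at -0.45, and clone2 against Scrambled had Samd8 at 0.092, and clone2 against clone1 had Smpdl3b at 0.0194, and Scrambled against shControl had Smpd4 at 0.18, and knockout effect minus shYAP effect had Smpd3 at 0.027. With limma without a block, clone1 against Scrambled had Smpdl3b at -0.12, and clone2 against clone1 had Smpdl3b at 0.0649, and shYAP against shControl had Smpd1 at 0.0016 and Smpd2 at -0.033, and Scrambled against shControl had Smpd4 at 0.0947 and Cerk at 0.0642. With limma blocked on the run, clone1 against Scrambled had Smpdl3b at -0.0664, and clone2 against clone1 had Smpdl3b at 0.0163, and shYAP against shControl had Smpd1 at 0.0115 and Smpd2 at -0.0333, and Scrambled against shControl had Smpd4 at 0.0712 and Cerk at 0.0468. With the shallowest library left out, both clones against Scrambled had Smpdl3b at 0.0137, and clone2 against clone1 had Smpd1 at 0.0139 and Smpd2 at -0.0042, and shYAP against shControl had Smpd2 at -0.0286. With clone replicates 1 to 6 alone, clone1 against Scrambled had Smpd4 at -0.0322 and Smpdl3b at -0.27, and clone2 against Scrambled had Sgms2 at 0.027, and clone2 against clone1 had Smpd2 at -0.10 and Smpdl3b at 0.0704. With clone replicates 7 to 9 alone, both clones against Scrambled had Sgms2 at -0.17, Smpd2 at 0.0508, Smpd4 at 0.0941 and Smpdl3b at 0.34, and clone2 against Scrambled had Smpd2 at 0.19 and Smpdl3b at 0.31, and clone2 against clone1 had Smpd1 at 0.12, and knockout effect minus shYAP effect had Sgms2 at -0.22, Smpd2 at 0.057 and Smpd3 at 0.41. With shControl in place of Scrambled, both clones against Scrambled had Sgms2 at -0.0625, Samd8 at -0.33 and Smpdl3b at 0.66, and clone1 against Scrambled had Sgms1 at 0.16, and clone2 against Scrambled had Smpdl3b at 0.66. With shControl replicates 1 to 4 alone, shYAP against shControl had Smpd2 at -0.0284, and Scrambled against shControl had Smpd4 at 0.25 and Cerk at 0.0121. With shControl replicates 5 to 10 alone, shYAP against shControl had Sgms2 at -0.0257 and Smpd4 at -0.0269. Leaving out 1 Scrambled or shYAP library in turn, the log2 fold change crossed 0 in these. For both clones against Scrambled the ranges were Sgms2 -0.0537 to 0.61, Samd8 -0.0018 to 0.26, Smpd2 -0.30 to 0.0866, Smpd4 -0.28 to 0.0416 and Smpdl3b -0.12 to 0.17. For clone1 against Scrambled the ranges were Smpd2 -0.31 to 0.0752 and Smpdl3b -0.11 to 0.19. For clone2 against Scrambled the ranges were Sgms2 -0.34 to 0.32, Smpd2 -0.29 to 0.10 and Smpdl3b -0.14 to 0.16. For shYAP against shControl the ranges were Sgms2 -0.31 to 0.21, Smpd1 -0.24 to 0.0296 and Smpd2 -0.29 to 0.24. For Scrambled against shControl the ranges were Smpd2 -0.19 to 0.19, Smpd4 -0.27 to 0.049 and Cerk -0.38 to 0.0508. For knockout effect minus shYAP effect the ranges were Sgms2 -0.10 to 0.56, Smpd2 -0.39 to 0.16 and Smpd3 -0.27 to 0.24.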
